A study of Homo sapiens with 8 samples.

Results

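The LSD1 regions of human chromosome 18 were examined in MDA-MB-231, a human breast cancer cell line, in its parental form and in RCOR2-KO1 (KO1), a line of the same cells in which RCOR2 was knocked out with CRISPR/Cas9. The methods section on knockout lines states that several clones were mixed for later work, without saying for which lines. The assay was CUT&RUN, in which an antibody directs a nuclease to its target so that the DNA lying next to the target is released and sequenced. Each genotype had 2 libraries with an anti-LSD1 antibody, the labels name no treatment, and libraries with normal rabbit IgG served as input for peak calling. Each list held 1 summit per peak, the base of highest signal, with a −log10 significance from the peak caller.

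Regions were chosen by their position on chromosome 18 (GRCh37), where summits of any of the 4 lists were joined while neighbours lay at most 500 bp apart. This gave 1429 regions of the 68148 on chromosomes 1 to 22 and X (2.1%). The chromosome itself was selected on earlier results for the presence and the strength of these same summits by genotype. Both measures are therefore given as a description of these libraries, and no test was applied to them. The longest stretch with no summit, from 15165485 to 18691838, separated the p arm with 415 regions from the q arm. The q arm was divided at 70 Mb into a proximal part of 916 regions and a distal part of 98 regions. The last region before 70 Mb ended at 68089560 and the first one after it began at 70768899, so no region lay near this boundary. The largest distance joined on the chromosome was 498 bp and the smallest left apart was 502 bp.

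LSD1, encoded by KDM1A, removes methyl groups from mono- and dimethylated lysine 4 of histone H3, marks of enhancers and promoters. RCOR2 belongs to the CoREST family of scaffold proteins, which link LSD1 to histone deacetylases and to nucleosomes. Chromosome 18 is poor in genes and tends to lie near the edge of the nucleus, and its long arm carries the tumour suppressor gene SMAD4 and the apoptosis inhibitor gene BCL2. The RefSeq annotation of GRCh38 lists 270 protein-coding genes on it, the second fewest of the 23 chromosomes. The positions of the summits are in GRCh37, for which no annotation was used here, so regions are named by position and not by gene.

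Parental replicates 1 and 2 had 981 and 1176 summits on chromosome 18, and KO1 replicates 1 and 2 had 997 and 964. As a share of each list these were 2.07%, 2.16%, 2.01% and 1.92%. Both KO1 libraries thus had a lower share than both parental libraries, at 1.97% ± 0.0617 against 2.12% ± 0.0619 (mean ± SD, n = 2 each). The same held for chromosomes 1, 11, 16, 17, 19, 20, 21 and 22. The reverse held for chromosomes 2, 4, 5, 7, 8, 12, 14 and X, so this separation was not particular to chromosome 18. The lists as a whole held 47354 to 54467 summits and parental replicate 2 had the longest, so that counts were read as shares. The depth of the libraries is unknown.

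The difference between genotypes was unequal along the chromosome. On the p arm, 275 and 336 summits in the parental libraries compared with 298 and 288 in the KO1 libraries, and as shares of each list these were 0.581% and 0.617% against 0.601% and 0.575%, so that the genotypes overlapped. On the proximal q arm there were 638 and 758 parental summits against 644 and 633 in KO1 cells. As shares these were 1.35% and 1.39% in parental and 1.3% and 1.26% in KO1 cells, which did not overlap and had a ratio of means of 0.935. Separation of this kind was common among whole chromosomes. In the distal q arm, 68 and 82 parental summits compared with 55 and 43 for KO1. Their shares of each list were 0.144% and 0.151% against 0.111% and 0.0858%. Each KO1 library was lower there, and the mean share was 0.669 times the parental one (0.0984% ± 0.0178 against 0.147% ± 0.00491, SD, n = 2). The distal q arm made up 6.93% and 6.97% of the chromosome 18 summits in the parental libraries and 5.52% and 4.46% in the KO1 libraries.

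Of the 1429 regions, 700 (49.0%) had a summit in all 4 lists, a lower share than on each of the other 22 chromosomes, where it was 50% to 55.0%. A summit in both lists of at least 1 genotype was found in 1035 regions. Of these, 100 regions (9.66%) were parental-only, with a summit in each parental list but none in KO1 cells, against 5.84% over the genome. In the opposite direction, 49 regions (4.73%) were KO1-only, with the reverse pattern, against 4.99% over the genome. Hence chromosome 18 had more parental-only regions than the genome as a whole, whereas its share of KO1-only regions was near the background. Only chromosome 20 had a higher share of parental-only regions (10.2%). A further 326 of the 1429 regions were found in a single list, 160 of them in parental replicate 2 and 44 to 73 in each other library.

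The 3 parts of the chromosome differed in these shares. On the p arm, 18 of 288 regions (6.25%) were parental-only and 12 (4.17%) were KO1-only, both within a percentage point of the genome. On the proximal q arm the counts were 65 (9.53%) and 36 (5.28%) of 682 regions. The distal q arm stood apart, as 17 of 65 regions (26.2%) were parental-only and 1 (1.54%) was KO1-only. Read the other way, 41 of the 58 distal regions found in both parental lists had a summit in at least 1 KO1 list (70.7%), compared with 92.7% on the p arm, 89.0% on the proximal q arm and 93.3% on the other chromosomes. Of the 42 distal regions found in both KO1 lists, 41 had a summit in a parental list (97.6%), compared with 94.2% on the other chromosomes. Both parental lists had a summit in 83.3% of these 42 regions, against 84.2% on the other chromosomes. The distal regions of KO1 cells were thus found in parental cells about as often as elsewhere. By contrast, 17 of the 58 distal regions of parental cells were not found in KO1 cells.

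**Figure D1:**
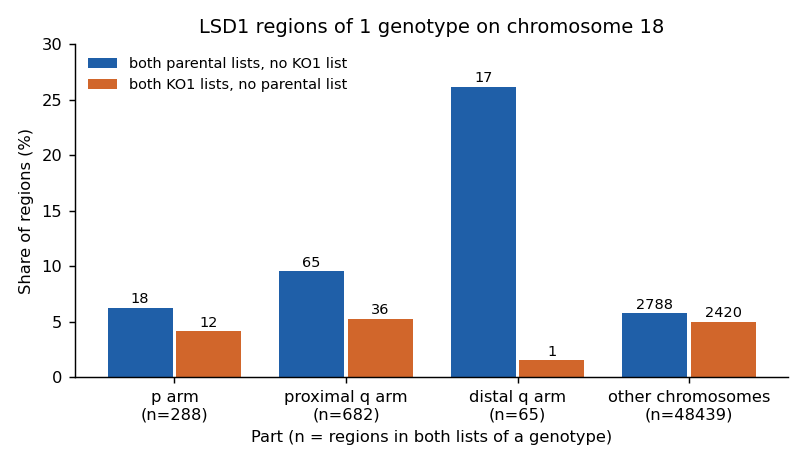
Share of regions found in both lists of 1 genotype and in no list of the other, in percent of the regions found in both lists of a genotype, for the p arm, the proximal q arm, the distal q arm and the other chromosomes. Numbers over the bars are counts of regions. The parental-only bar stands at 26.2% on the distal q arm, where the KO1-only bar is at 1.54%.

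These counts were repeated with other lists. When each list was trimmed to as many summits as the shortest one, 13 distal regions (22%) were parental-only and 1 was KO1-only. Without parental replicate 1 and without parental replicate 2, the parental-only counts were 34 and 26. Without KO1 replicate 1 and without KO1 replicate 2 they were 24 and 17, and KO1-only counts in these 4 settings were 2 to 6. With 1 library left out, a single list stands for a genotype, so that more regions are found in 1 genotype by construction. The 18 parental-only regions of the p arm became 66 and 37 without parental replicates 1 and 2, and 29 and 30 without KO1 replicates 1 and 2. The 12 KO1-only regions became 22, 34, 30 and 36 in the same settings. With lists of equal length, the p arm had 17 parental-only (6.18%) and 18 KO1-only regions (6.55%), so which of them was more frequent there depended on the list lengths. On the proximal q arm, the 65 parental-only regions became 168 and 87 without parental replicates 1 and 2, and 101 and 103 without KO1 replicates 1 and 2, while the 36 KO1-only regions became 50, 77, 70 and 84. Parental-only regions outnumbered KO1-only regions in these settings on both parts of the q arm, but on the p arm without a KO1 library they did not. In the upper 50% of each list, 3 distal regions were parental-only and 1 was KO1-only, of 24 regions. The shares over the genome were not computed for these other lists. Counts and shares in these settings therefore compare parts of chromosome 18 and cannot be set against a background.

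Strength was compared by rank. Each summit was given a percentile among all summits of its library, with 100 for the strongest, and a region took its highest summit in each library. Over the 700 regions in all 4 lists, the median percentiles of parental replicates 1 and 2 were 58.4 and 63.2, and those of KO1 replicates 1 and 2 were 57.3 and 57.4. The same medians on the other chromosomes were 59.0, 64.6, 61.2 and 61.4. The shared regions of chromosome 18 therefore differed from the other chromosomes by -0.57 and -1.36 points in the parental libraries and by -3.85 and -3.99 points in the KO1 libraries. Region by region, the median of KO1 minus parental was -2.72 percentile points, against -0.541 on the other chromosomes. Both KO1 values were under both parental values in 204 of the 700 regions (29.1%, against 22.4% over the genome) and over them in 125 (17.9%, against 19.6%). In the other 371 regions the genotypes overlapped.

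These differences again followed the arms. On the p arm, the median difference was 1.19 points over 209 shared regions, and regions with both KO1 values above both parental values (55, or 26.3%) outnumbered those below (39, or 18.7%). On the proximal q arm, the median difference was -4.45 points over 456 regions, with 149 below (32.7%) and 69 above (15.1%). On the distal part, it was -10.4 points over 35 regions, with 16 below (45.7%) and 1 above. Of these 35 regions, 32 had a lower mean percentile in KO1 cells, and the differences ran from -48.7 to 4.66. On the log2 scale of the −log10 values, each library centred on its own median, the median differences were 0.09 on the p arm, -0.19 on the proximal q arm and -0.51 on the distal q arm.

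The 4 pairs of a KO1 and a parental library were also taken one by one, since parental replicate 2 ranked shared regions higher throughout the genome. In each pair, the median on the other chromosomes was subtracted. The p arm then lay 1.78 to 2.85 points above the other chromosomes in all 4 pairs. The proximal q arm differed from them by -4.63 to -3.53 points, and the distal q arm by -12.4 to -8.53 points. On the p arm it was the parental medians that stood apart from the other chromosomes, by -2.74 and -6.11 points, while the KO1 medians differed by 1.06 and 0 points. On the distal q arm the parental medians were 3.17 and 3.73 points above the other chromosomes, and the KO1 medians differed from them by -5.72 and -18.6 points. The uncorrected p arm value was decided by the parental libraries, being -0.164 without parental replicate 1 and 3.52 without parental replicate 2. Between replicates of 1 genotype, the median change from replicate 1 to 2 on the distal q arm was 2.04 points in parental and 0.244 points in KO1 cells. However, the median levels of the distal regions in KO1 replicates 1 and 2, 55.5 and 42.8, lay further apart than the parental ones, 62.2 and 68.3.

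**Figure D2:**
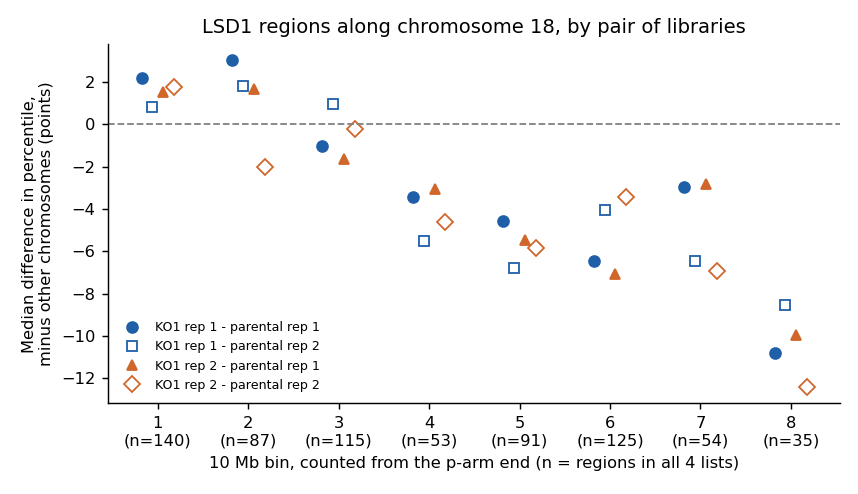
Median difference in within-list percentile between a KO1 and a parental library over the regions found in all 4 lists, in 8 bins of 10 Mb from the p-arm end, with the median of the same pair on the other chromosomes subtracted. Each symbol is 1 of the 4 pairs of libraries and the dashed line marks the level of the other chromosomes. All 4 pairs lie below this line in bins 4 to 8 and lowest in bin 8, where they span -12.4 to -8.53.

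The differences were then followed in bins along the chromosome. The bins of 10 Mb that start at 0 and 10 Mb had medians of 0.458 and 1.62 points, and the bin from 20 Mb had -1.43 points. In the first of these all 4 pairs lay above the other chromosomes, and in the other two they fell on both sides of them. Bins of 5 Mb were uneven here. Their medians were -6.52 over 18 shared regions from 15 to 20 Mb and -6.85 over 28 from 25 to 30 Mb. From 10 to 15 Mb the median was 2.43 over 69 shared regions. From 0 to 5 Mb it was -0.0429 over 50, with 15 above and 11 below in KO1 cells. The p arm was not uniform there. Its first shared regions, chr18:158441-158545 and chr18:322761-322803, differed by -27.7 and -22.8 points, and these were chosen after their values were seen. From 20 to 25 Mb, on the q arm, it was -0.427 over 87, near the -0.541 of the other chromosomes. From 30 Mb on, the medians were -5.56, -6.78, -4.97, -4.75 and -10.4. In each of these 5 bins, all 4 pairs of libraries lay below the other chromosomes, the least at -2.80. Bins of 5 Mb were uneven here too, as the one from 35 to 40 Mb had a median of -0.238 over 11 shared regions, with 3 above and 2 below in KO1 cells. The distal q arm divided into -17.0 over 28 shared regions from 70 to 75 Mb, with 15 of its 17 parental-only regions, and -6.71 over 7 shared regions beyond. Among the 287 bins of the genome with at least 30 shared regions, these 5 bins ranked 16th, 11th, 19th, 21st and 1st from the lowest. Parental-only regions were most frequent in 2 of the bins, with 24 of 146 regions (16.4%) from 40 to 50 Mb and 17 of 65 (26.2%) from 70 Mb. In the first 3 bins they made up 4.82% to 8.06%. Within the bin from 40 Mb, 16 of the 24 parental-only regions lay in its first 5 Mb, where they made up 28.1% of 57 regions, and 1 KO1-only region was found there.

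On the q arm, the median difference was below 0 at every level of strength. Shared regions were put into classes by their mean percentile over the 4 libraries. On the proximal q arm the median difference was -2.24 points in the class under 25, -2.93 from 25 to 50, -6.74 from 50 to 75 and -4.22 from 75. On the other chromosomes these medians were -2.14, -1.38, -0.777 and -0.147. The gap to the other chromosomes was thus wider among regions of the upper classes than among the weakest ones. On the p arm, the same classes had medians of -3.19, -1.55, 5.89 and 1.24. The distal q arm had 1, 13, 14 and 7 regions in these classes, with medians of -16.8, -12.6, -20 and -6.71.

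**Figure D3:**
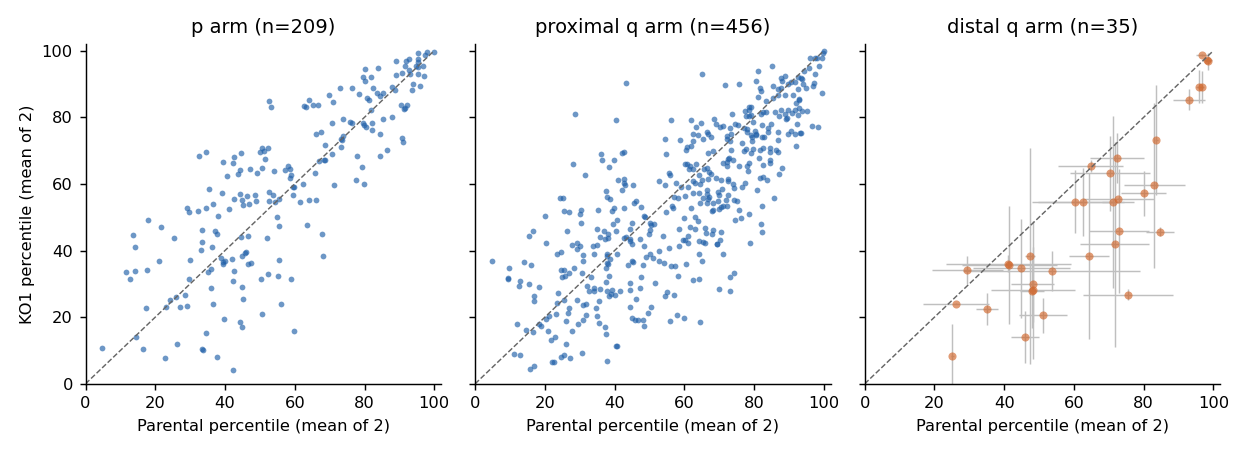
Mean within-list percentile of each region found in all 4 lists, with parental cells on the horizontal and KO1 cells on the vertical axis, for the p arm, the proximal q arm and the distal q arm. The dashed line marks equal values, and the bars on the distal q arm are the SD of 2 libraries. On the distal q arm 32 of 35 regions lie below the line, whereas on the p arm 95 of 209 do.

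The strongest shared regions, ranked by their mean over all 4 libraries, are given as a description, since this choice favours regions that are high in both genotypes and percentiles near 100 leave little room to differ. The strongest of the proximal q arm, chr18:45529952-45530238, had percentiles of 99.93 and 99.92 in parental and 99.71 and 99.94 in KO1 cells. It held the highest summit of the chromosome in all 4 libraries. The strongest of the p arm, chr18:11325501-11325606, had 99.8 and 99.8 in parental and 99.6 and 99.6 in KO1 cells. The 3 strongest regions of the distal q arm lay within 50 kb of each other, at chr18:74766917-74767104, chr18:74774800-74775369 and chr18:74813513-74813635. Their parental means were 98.3, 98.4 and 96.7, and their KO1 means were 97.3, 96.8 and 98.7. The third of these was the only distal region in which both KO1 values, 98.4 and 99.0, exceeded both parental values, 98.0 and 95.5. Other distal regions that were nearly as strong in parental cells ranked lower in KO1 cells, such as chr18:71815146-71815574 with 96.2 and 97.1 in parental and 85.8 and 92.6 in KO1 cells. Another, chr18:77005965-77006334, had 95.3 and 96.5 against 85.7 and 92.7, and both were chosen after their values were seen.

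The 5 largest falls among shared regions with separate genotypes included 1 on the p arm, 3 on the proximal q arm and 1 on the distal q arm. The largest was at chr18:74744225-74744427 on the distal q arm, with percentiles of 84.6 and 66.3 in parental and 25.6 and 27.8 in KO1 cells. Both KO1 values were thus far below both parental ones. The second was at chr18:42217700-42217862, with 65.1 and 63.7 in parental and 31.6 and 5.36 in KO1 cells. At chr18:45856967-45856992 the values were 73.1 and 73.2 in parental and 14.8 and 40.9 in KO1 cells. On the p arm, chr18:3666416-3666477 had 53.7 and 66.1 in parental and 20.3 and 11.3 in KO1 cells. At chr18:29264724-29264803, parental values of 67.2 and 72.5 compared with 50.1 and 7.0 in KO1 cells, so that KO1 replicate 2 carried most of that difference.

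Some shared regions of the q arm ranked higher in KO1 cells. The largest rise was at chr18:37593234-37593355, with percentiles of 30.2 and 26.9 in parental and 84.1 and 78.0 in KO1 cells, a difference of 52.5 points. At chr18:21402582-21402889 the parental values were 47.8 and 39.0 and the KO1 values 91.3 and 89.5. Further rises were at chr18:20408321-20408413, with parental values of 35.7 and 45.4 and KO1 values of 78.9 and 79.4, and at chr18:21644892-21645078, with 23.2 and 32.8 against 57.8 and 74.2. Of the 5 largest rises, 3 thus lay between 20012722 and 21656422. In that stretch, chosen after its values were seen, 13 of 58 shared regions were above and 15 were below in KO1 cells, and the median difference was -0.660. The fifth was on the p arm at chr18:7329025-7329284, with 31.6 and 33.4 in parental and 77.4 and 59.2 in KO1 cells.

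Regions found in 1 genotype only were mostly weak. The 100 parental-only regions had a median percentile of 23.8 and the 49 KO1-only regions one of 19.7, close to 22.4 and 21.6 on the other chromosomes. In 6 of the 100 and 4 of the 49, both values were at 50 or above, against 10.2% and 9.92% on the other chromosomes. The median distance from a parental-only region to the nearest KO1 summit was 10.4 kb. A KO1 summit lay within 2 kb of 12 of the 100, against 18.3% on the other chromosomes. None of the 17 distal parental-only regions had both values at 50 or above, and their highest mean was 49.9. Parental-only regions thus ranked low in parental cells on the distal q arm, as they did elsewhere. Falls in rank also took in stronger regions, but shared regions must be called in all 4 lists. This contrast is therefore partly set by how the regions were defined.

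The strongest parental-only region, chr18:20046705-20046809, had percentiles of 94.2 and 92.1 in the parental libraries. Each KO1 library had a summit of like rank close by, KO1 replicate 1 at 20047405 with a percentile of 97.1 and KO1 replicate 2 at 20047921 with 89.4. The nearest of them was 0.648 kb away, just beyond the joining distance of 500 bp. The next 4 had no KO1 summit within 3 kb. Of these, 3 lay close together at chr18:42305722-42305792, chr18:42309765-42309905 and chr18:42352091-42352422. Their parental percentiles were 61.1 and 61.7, 66.0 and 58.4, and 63.7 and 71.2. The last was chr18:45764953-45765343, with 53.9 and 69.2.

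The strongest KO1-only region was the single one of the distal q arm. At chr18:74783989-74784118 it had percentiles of 89.3 and 88.2 in the KO1 libraries, and the nearest parental summit was 4.20 kb away. It lay between the strongest shared regions of the distal q arm. The other 4 strongest were on the proximal q arm and had means of 52.5 to 63.9. The nearest of these to a parental summit, chr18:48762127-48762281, was 0.592 kb from it.

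The 3 parental-only regions near 42.3 Mb belonged to a run. Between 42217700 and 42369843, a stretch chosen after its values were seen, 11 regions were found, of which parental replicates 1 and 2 held 9 and 10 and each KO1 library held 4. Of the 9 regions found in both parental lists, 6 had no KO1 summit. The other 3 had both KO1 values below both parental values. The strongest of the run, chr18:42313551-42313657, had 98.1 and 98.8 in parental and 84.1 and 70.3 in KO1 cells. At chr18:42234710-42234764 the values were 68.2 and 72.1 in parental and 25.6 and 60.6 in KO1 cells. On a fixed grid of 200 kb, the window with this run was the only one of 84 windows of chromosome 18 with at least 5 regions found in both lists of a genotype that held 4 or more parental-only regions. On the other chromosomes, 32 of 4259 such windows held at least 4 and 5 held at least 6, so such windows were not particular to chromosome 18. No such window of chromosome 18 held more than 3 KO1-only regions, and 5 of the 4259 elsewhere held at least 4.

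**Figure D4:**
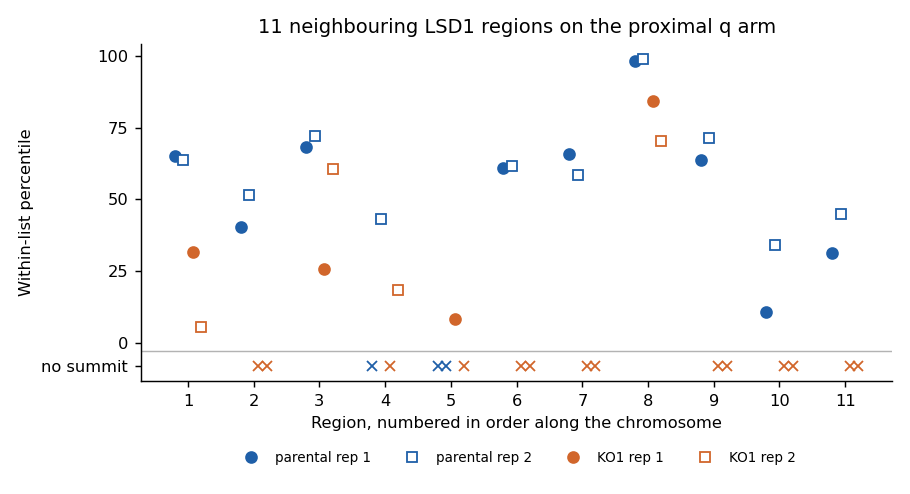
Within-list percentile of 11 neighbouring regions of the proximal q arm in each library, in their order along the chromosome. Blue marks are the parental and orange marks the KO1 libraries, circles are replicate 1 and squares replicate 2, and crosses mark libraries without a summit. In regions 2, 6, 7, 9, 10 and 11 only the parental libraries have a summit, and in regions 1, 3 and 8 the KO1 values lie below the parental ones.

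A shorter run of the same kind lay on the distal q arm between 74163171 and 74277363, also chosen after its values were seen. Of 6 regions found in both parental lists, 4 were in no KO1 list. Among these 4, chr18:74204955-74205021 had a KO1 replicate 1 summit at 74205567, just beyond the joining distance, with a percentile of 4.47. The strongest of the 6, chr18:74171997-74172059, had percentiles of 87.5 and 81.8 in parental and 46.6 and 44.7 in KO1 cells. The sixth, chr18:74277333-74277363, had 60.7 and 81.0 in the parental libraries and 17.4 in KO1 replicate 1 alone. The stretch from 74730790 to 74846237, likewise chosen after its values were seen, held 20 regions, of which KO1 replicates 1 and 2 had 13 and 12 and parental replicates 1 and 2 had 14 and 15. There, 2 regions were parental-only and 1 was KO1-only, and 8 of the 9 shared regions had a lower mean in KO1 cells.

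The density of regions also differed between the arms. The p arm held 27.4 regions per Mb, the proximal q arm 18.5 and the distal q arm 13.5, and the other chromosomes 23.3. Shared regions, which by definition have a summit in both KO1 lists, followed the same order with 13.8, 9.23 and 4.84 per Mb, against 12.3 elsewhere. Spans ran from the first to the last summit of each part or chromosome. Those of the arms thus leave out the centromeric gap, which those of whole chromosomes include. Measured as a whole, chromosome 18 held 18.3 regions and 8.97 shared regions per Mb. Relative to genes the order of chromosomes was another one. There were 5.29 regions per protein-coding gene of the GRCh38 annotation on chromosome 18, the second highest value after chromosome 13 (5.44), and the lowest was 1.70 on chromosome 19. The longest stretch without a summit outside the centromeric gap measured 2.68 Mb, from 68089560 to 70768899, just before the distal q arm. The densest group of shared regions held 8 regions within 48.7 kb on the p arm, at chr18:8698940-8747653. Its median percentile was 90.9 in parental and 85.5 in KO1 cells, with 3 of 8 regions below and none above.

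The summits of a shared region lay close together in the 4 libraries. The distance between the outermost of the 4 had a median of 91.0 bp on the p arm, 103 bp on the proximal q arm, 115 bp on the distal q arm and 103 bp on the other chromosomes. No shared region of chromosome 18 held more than 1 summit per library. Regions with a mean percentile of 90 or above made up 10.5% of the shared regions on the p arm (22 of 209) and 5.04% on the proximal q arm (23 of 456), compared with 11.0% elsewhere. On the distal q arm the share was 14.3% (5 of 35).

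Chromosome 18 was not alone in its direction. Its whole-chromosome median difference of -2.72 was the second lowest after chromosome 16 (-4.79), and the other chromosomes ran up to 0.984 on chromosome 14. Its share of regions below in KO1 cells, 29.1%, was also second to chromosome 16 (30.8%). Its share of each list was lower in KO1 cells by a factor of 0.930, whereas chromosomes 20, 19 and 16 had factors of 0.908, 0.919 and 0.920. The p arm and the q arm moved apart, so that the value of the whole chromosome understates the q arm, whose own median was -4.97 over 491 shared regions.

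The ends of the long arms were compared in windows of equal length, 8.01 Mb up to the last summit of each chromosome. The median difference was below 0 in 20 of the 22 other chromosomes, with a median of -3.0 and a lowest value of -7.51 on chromosome 16. Chromosome 18 had the lowest of the 23 at -10.4 and also the highest share of parental-only regions, 26.2%, followed by chromosome 20 with 18.7%. It also had the fewest shared regions in its window, 35 against 54 to 226, so its value rests on the fewest regions. At the other end of the chromosome, the same length from the first summit of chromosome 18 had a median of -0.113 and 5 parental-only regions of 112. In windows of this length from the first summit of each other chromosome, whichever arm it lay on, the median differences ranged from -7.73 to 3.37. At the p end of chromosome 2, 16 of 47 regions were parental-only (34.0%), a higher share than on the distal q arm of chromosome 18.

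**Figure D5:**
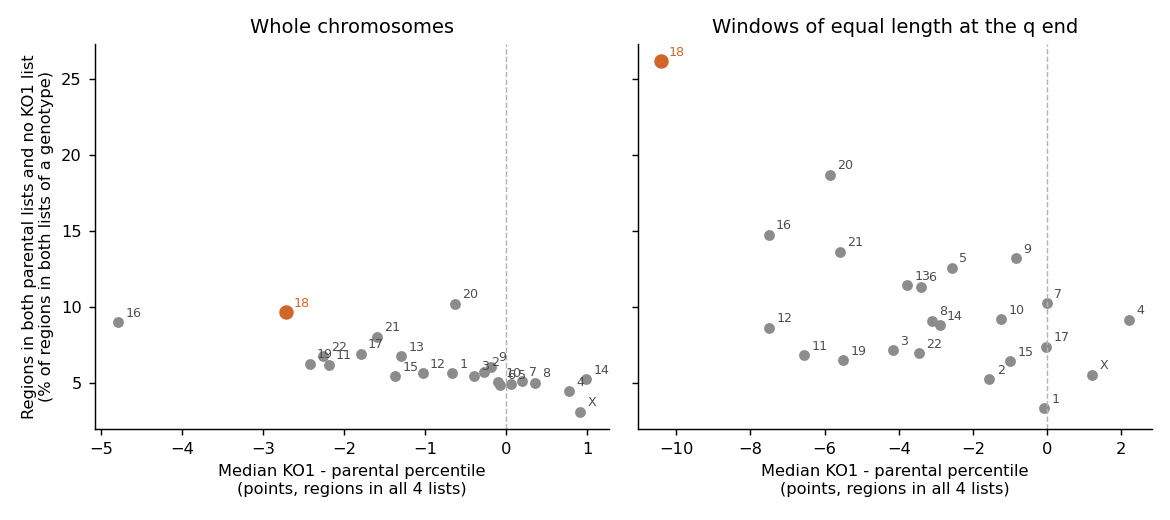
Median KO1 minus parental percentile of the shared regions against the share of parental-only regions, with 1 point per chromosome. The left panel takes whole chromosomes and the right panel a window of 8.01 Mb at the q end of each, with chromosome 18 in orange. Chromosome 18 lies among the outermost points on the left, with chromosomes 16 and 20, and apart from the other 22 on the right.

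Ranks within a list are blind to a change common to all of its summits, and values below a peak caller's threshold were not analysed here.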

How the data were processed

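LSD1 CUT&RUN was done in MDA-MB-231 cells, parental or RCOR2-KO1 (2 libraries each). The submitters' processing notes name FastQC 0.11.2, Bowtie2 2.3.3.1, Picard, MACS2 2.1.0 and hg19, with no settings. The authors called peaks per library with IgG as input and deposited 1 bp summits with a −log10 of a p or q value, at least 1.31 to 1.40 in each list. The summits were analysed in Python 3.11.15, pandas 2.3.3 and numpy 2.4.6 and plotted with matplotlib 3.10.9. A summit's percentile is the percentage of summits of the same library with an equal or lower value. Summits at most 500 bp apart were joined, and a region took its highest summit per library. Groups came from the sample titles. The members, arms and rules were chosen with earlier results of these data known, so no test was run. The steps were tested on simulated lists, whose summits were less scattered than the real ones. Splits of a region at the joining distance were therefore not tested.

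Regions were named by rule: the 3 strongest shared regions of each part, the 5 strongest of each genotype, the 5 largest rises and falls with separate genotypes, and those at the boundaries. Exceptions are marked as chosen after their values were seen. Genes and sequences need GRCh37 tables that were not used here. Depth is unknown, so no counting interval is given. Replicate numbers were not taken as pairs, since the titles do not say whether they pair the libraries. The differences between replicates in parental and KO1 cells had a correlation of 0.0690 over the shared regions of chromosome 18. This value cannot decide whether the libraries were handled in pairs. Alternatives were joining distances of 250 and 1000 bp, the upper 50% of each list, lists of equal length, percentiles among shared regions, a log2 scale, a replicate block, other boundaries of the distal q arm and each library left out.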

Additional observations from a re-analysis of the deposited data

How the results depend on the processing

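The medians of chromosome 18 as a whole (-2.72), the proximal q arm (-4.45) and the distal q arm (-10.4) kept their sign under every alternative run. Leaving out each library in turn, they ranged from -4.82 to -1.62, from -6.54 to -3.40 and from -14.7 to -10.2. The p arm median (1.19) ranged from -0.164 without parental replicate 1, where its sign reversed, to 3.52. In the upper 50% of each list, the proximal q arm median moved to -8.78, and the counts fell, with fewer summits by construction, from 700 to 290 regions in all lists, from 100 to 47 parental-only and from 49 to 29 KO1-only regions. Their shares there were 9.96% and 6.14%, and the same shares over the genome were not computed. With the replicate block, taken as the mean over both pairs of equal number, the counts were 268.5 and 170.5, because each genotype is then 1 library, and the medians were -2.88, 1.89, -4.55 and -12.2 for the chromosome, p arm, proximal and distal q arm. Leaving out each library gave 150 to 268 parental-only, 74 to 125 KO1-only and 712 to 756 regions in all remaining lists. With the distal q arm taken from 60 or 65 Mb, its median was -7.74 or -10.4. Its parental-only regions were then 26 (17.6%) or 21 (21.4%), and its KO1-only regions were 6 (4.05%) or 3 (3.06%). In the main setting these counts were 17 (26.2%) and 1 (1.54%). With a joining distance of 250 bp they were 18 (29.5%) and 3 (4.92%), and with 1000 bp they were 16 (24.6%) and 1 (1.54%). The contrast between the 2 shares was thus smaller with either other boundary. The cause of the moved medians was not tested. The precision of a rank is unknown without the depth, and the distal q arm rests on 35 shared regions.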
